A study of Mus musculus with 38 samples.

Results

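The Pax genes encode transcription factors that share a paired domain, the DNA-binding domain for which the family is named. All 9 mouse members, Pax1 to Pax9, were taken by symbol from the 21938 protein-coding genes of the GENCODE M21 annotation on GRCm38. None was left out for its measured values. Each was examined over its gene body plus 5 kb on either side, and the 9 windows together spanned 692.845 kb. The libraries came from ES-E14TG2a mouse embryonic stem cells kept in serum and LIF and collected at 0 h, before any differentiation. IκBα-WT cells carried a non-targeting scrambled guide RNA and IκBα-KO cells had been made by CRISPR/Cas9 with 2 guide RNAs against exon 1 of Nfkbia, the gene for the NF-κB inhibitor IκBα. Each genotype was represented by 3 single-cell-derived clones, so the spread within a genotype is that between clones of 1 parental line. Chromatin immunoprecipitation and sequencing (ChIP-seq) covered H3K4me3, H3K27me3, H3K9me3, H3K27ac and H3K4me1 in 3 IκBα-WT and 3 IκBα-KO libraries per mark, 30 in all, and the comparison asks how loss of IκBα altered each mark.

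Pax factors direct the formation of organs and cell types, and most are transcribed only in the lineages they specify. Pax1 and Pax9, which lack a homeodomain, act in the vertebral column, pharyngeal pouches and teeth. Pax2, Pax5 and Pax8, which keep a partial homeodomain, act in kidney, B lymphocytes and thyroid respectively, and all of them in parts of the nervous system. Pax3 and Pax7 act in neural crest and in muscle progenitors, and Pax4 and Pax6 in pancreatic islets, with Pax6 also in eye and forebrain. The last 4 hold a full homeodomain. In embryonic stem cells, developmental regulators of this kind are typically held silent by Polycomb repressive complex 2, which deposits H3K27me3. Promoters that carry H3K4me3, a mark of transcription starts, together with H3K27me3 are called bivalent. H3K27ac and H3K4me1 mark active and primed regulatory sequence, and H3K9me3 marks constitutive heterochromatin.

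The 9 genes lay on 6 chromosomes (GRCm38). Of the first subgroup, Pax1 occupied chr2:147361925-147393295 on the plus strand and Pax9 chr12:56691767-56712822 on the plus strand. Of the second, Pax2 lay at chr19:44756045-44837871 (plus), Pax5 at chr4:44524757-44710487 (minus) and Pax8 at chr2:24420560-24475599 (minus). Pax3 was at chr1:78101267-78197134 (minus) and Pax7 at chr4:139737062-139833528 (minus). Pax4 was at chr6:28442334-28449353 (minus) and Pax6 at chr2:105668900-105697364 (plus). The windows ran from 17.02 kb for Pax4 to 195.731 kb for Pax5. The Pax4 window also held part of Fscn3, that of Pax6 part of Elp4 and that of Pax9 part of Slc25a21, and marks there cannot be assigned to 1 gene of a pair. Positions within a gene are given below as distances from its annotated start, negative upstream.

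The lists held 21836 to 26806 H3K4me3 calls per library, and the ChIP reads inside the calls of a library numbered between 8548342 and 12105343 (H3K9me3), between 8910890 and 10938375 (H3K27me3), between 22943091 and 28339766 (H3K27ac) or between 34736939 and 35951506 (H3K4me1). H3K4me3 calls were more numerous in each IκBα-KO library (from 23736) than in any IκBα-WT library (up to 23638). Of 8 embryonic stem cell genes, 7 promoters were called for H3K27ac in every library and 1 or 2 for H3K27me3. H3K27me3 was called at 5 of 5 primitive endoderm, 5 of 5 neural progenitor and 4 of 5 mesoderm promoters in all 6 libraries. H3K27ac was called at 3 or 4 of 5 primitive endoderm promoters and 3 or 4 of 5 mesoderm promoters. At neural progenitor promoters it was called at 3 to 5 of 5. H3K4me3 was called at 5 to 7 of 8 stem cell and 0 to 2 of 5 primitive endoderm promoters. At neural progenitor and mesoderm promoters it was called at 4 of 5 and at 4 or 5 of 5. At Nfkbia itself H3K4me3 calls covered 1226, 1168 and 1523 bp in IκBα-WT and 235, 820 and 1286 bp in IκBα-KO, and such widths do not show the guides' edits. Over the 1-Mb stretches around the 9 genes, the log2 ratio of IκBα-KO to IκBα-WT input reads relative to the genome lay between -0.14 and 0.11, except for 0.20 at Pax3 in the H3K9me3 experiment. Pax9 had the lowest ratio of the family in the H3K9me3 experiment (-0.14) and in the H3K27me3 experiment (-0.097).

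The following 4 stretches of sequence carry the differences and the constant features described for H3K4me3 below, and each is printed in the direction of its gene with CpG dinucleotides in capitals. The first, at chr4:44711819-44712108 (minus strand) upstream of Pax5, was called for H3K4me3 in all 3 IκBα-WT and in no IκBα-KO library. The second, at chr6:28451124-28451353 (minus strand) upstream of Pax4, was called in at least 2 IκBα-KO and in no IκBα-WT library. The third, at chr2:24474136-24474354 (minus strand), is the core of the Pax8 call that remained in all 6 libraries. The last, at chr4:44664168-44664467 (minus strand), lies in an intron of Pax5, was called in all 6 libraries and is shown for its density of CpG.
Pax5 upstream: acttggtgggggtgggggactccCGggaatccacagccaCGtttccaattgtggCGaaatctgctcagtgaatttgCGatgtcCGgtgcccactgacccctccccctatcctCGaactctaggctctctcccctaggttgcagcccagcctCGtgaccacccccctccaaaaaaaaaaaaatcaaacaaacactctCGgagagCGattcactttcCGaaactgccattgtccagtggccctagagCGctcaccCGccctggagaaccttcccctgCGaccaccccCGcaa
Pax4 upstream: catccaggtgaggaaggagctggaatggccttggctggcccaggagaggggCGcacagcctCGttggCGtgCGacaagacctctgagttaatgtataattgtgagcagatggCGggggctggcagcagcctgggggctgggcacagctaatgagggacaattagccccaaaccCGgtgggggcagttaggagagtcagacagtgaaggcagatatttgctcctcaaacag
Pax8 core: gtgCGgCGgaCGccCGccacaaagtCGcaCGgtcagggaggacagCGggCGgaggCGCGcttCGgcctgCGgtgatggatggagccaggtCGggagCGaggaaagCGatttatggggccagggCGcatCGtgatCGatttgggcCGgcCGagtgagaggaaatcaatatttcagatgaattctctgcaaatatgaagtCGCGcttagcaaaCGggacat
Pax5 intron: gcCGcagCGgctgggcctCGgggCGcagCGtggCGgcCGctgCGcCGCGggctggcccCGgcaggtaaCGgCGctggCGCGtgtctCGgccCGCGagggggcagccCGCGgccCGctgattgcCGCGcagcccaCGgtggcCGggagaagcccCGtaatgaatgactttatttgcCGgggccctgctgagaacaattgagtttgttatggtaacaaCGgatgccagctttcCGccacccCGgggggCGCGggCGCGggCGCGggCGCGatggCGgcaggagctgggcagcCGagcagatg

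Of the stretches called for H3K4me3 in all 6 libraries, that in the Pax5 intron held 40 CpG in 300 bp and that of Pax8 23 CpG in 219 bp, or 13.3 and 10.5 CpG per 100 bp. Those of Pax6 and Pax2, whose letters are not printed, held 11 in 300 bp each (3.67 per 100 bp). UTR bases were left out of the stretches, and those longer than 300 bp were cut to their central 300 bp. Before the cut they spanned 562 bp (Pax5 intron), 315 bp (Pax6) and 374 bp (Pax2). The Pax5 upstream stretch, called in IκBα-WT libraries, held 14 in 290 bp (4.83 per 100 bp), and the Pax4 upstream stretch 6 in 230 bp (2.61 per 100 bp). In the RefSeq table of promoters on GRCm38.p6, 7 members had an entry, with 10 starts in all, and these 300-bp promoters held 7 to 30 CpG against a median of 7 over 32841 promoters. At least 15 CpG were found in 6 of the 10, compared with 34.6% of all promoters. These 6 lay at Pax2, Pax5, Pax6 and Pax7 only, since starts of the same gene were counted separately.

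H3K27me3 covered large parts of all 9 Pax windows. Over the 6 libraries, its calls covered on average from 45.6% of the Pax8 window to 86.5% of the Pax7 window, and each member lay above 83.7% or more of all coding windows, whose median was 3.44%. All 9 promoters (5000 bp upstream to 100 bp downstream of the gene start) were called in all 6 libraries, as were 30.4% of all coding promoters. In the muscle and neural crest pair, the mean was 83.8% for Pax3 and 86.5% for Pax7. Pax2 reached 83.8%, Pax4 76.4%, Pax9 72.7%, Pax6 70.0%, Pax5 65.7% and Pax1 57.1%. Neighbours in this order could not be separated where the spread between libraries was wide, as for Pax3, whose libraries ran from 75.1 to 89.3%. Pax6 was the most uniform member. A single H3K27me3 call covered 69.4 to 70.5% of its window in every library.

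**Figure D1:**
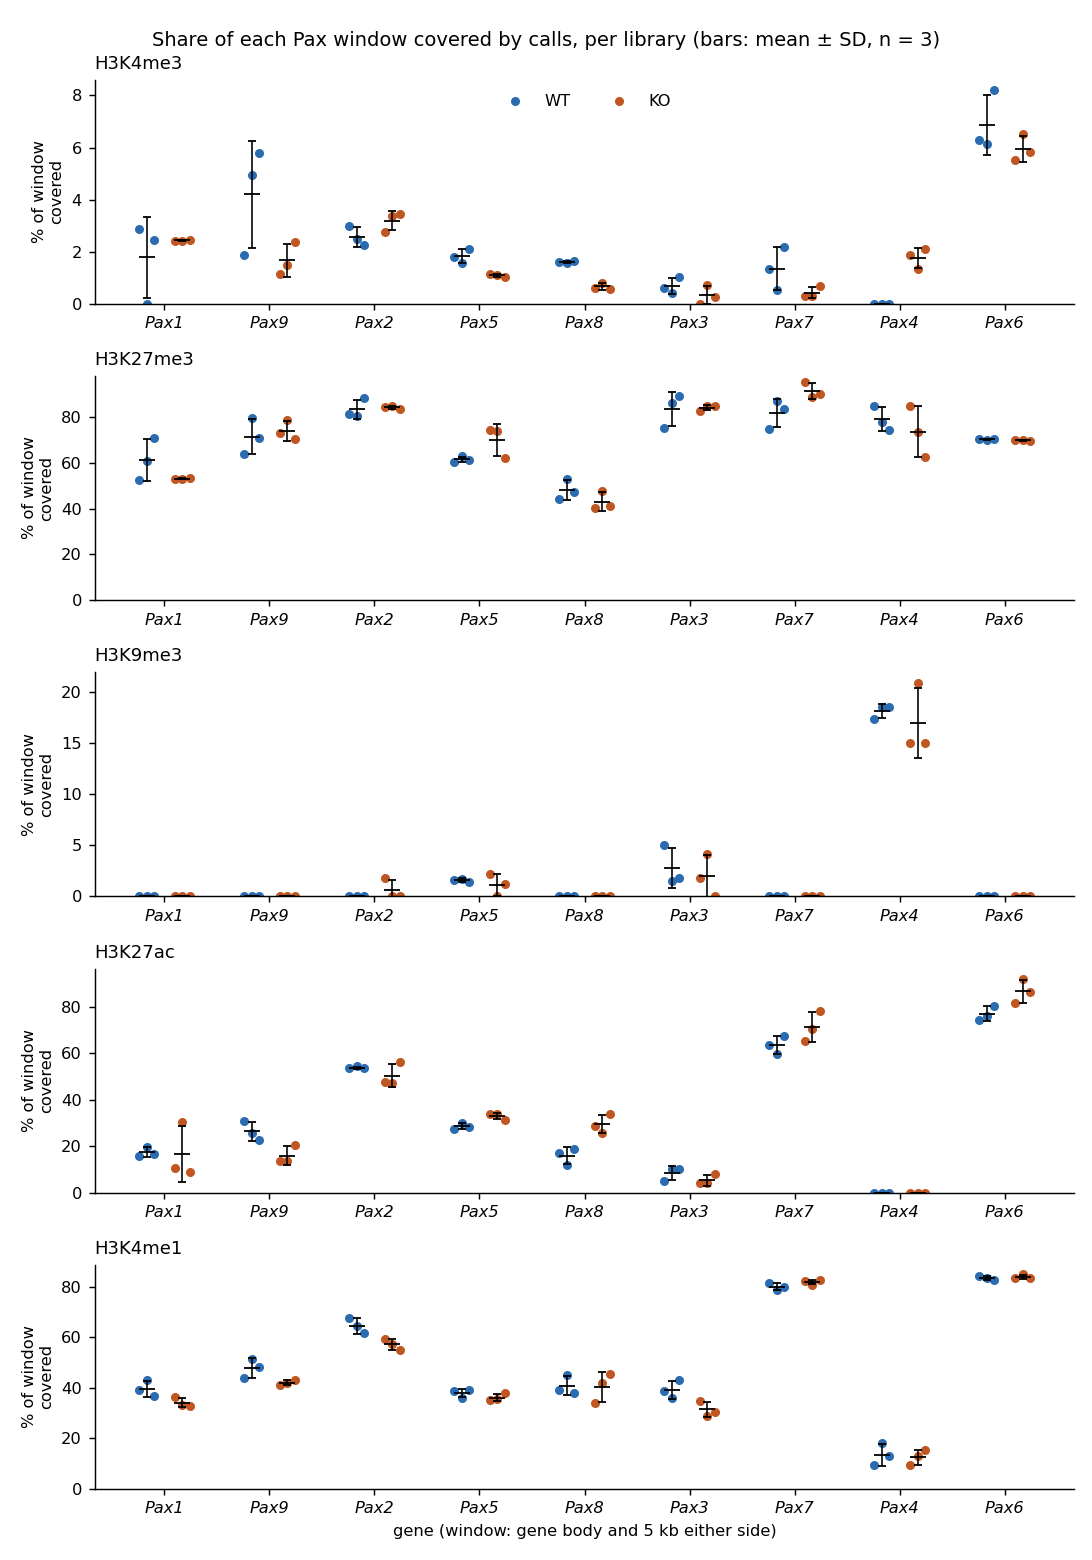
Share of each Pax window covered by calls (%, vertical axis) for the 9 genes (horizontal axis, by subgroup), 1 panel per mark; points are libraries, with the mean and SD of 3 IκBα-WT and 3 IκBα-KO libraries. H3K27me3 covers 40.3 to 95.1% of every window in every library, H3K4me3 at most 8.19%, and H3K9me3 is found in every library only at Pax4.

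Other marks separated the members more strongly. H3K4me3 covered 0.51% of the Pax3 window and 6.41% of the Pax6 window on average, with a median of 1.68% over coding windows. H3K27ac ranged from no call in any library at Pax4 to 81.9% at Pax6, and H3K4me1 from 13.0% at Pax4 to 83.8% at Pax6. Pax6 and Pax7 had the broadest H3K27ac and H3K4me1, with 67.6% and 81.0% of the Pax7 window covered. H3K9me3 was absent from every library at Pax1, Pax6, Pax7, Pax8 and Pax9, and was called in all 6 only at Pax4, where it covered 17.5% of the window.

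Calls of the active marks lay largely inside H3K27me3 calls. In single libraries 98.7 to 100% of the H3K4me3 bases in the Pax windows were also under H3K27me3 in the library with the same genotype and number, compared with 28.0 to 35.5% across the genome. For H3K27ac the corresponding figures were 74.8 to 80.8% against 13.6 to 15.0%, and for H3K4me1 77.5 to 84.3% against 18.5 to 21.2%. H3K27me3 itself covered 464 to 524 of the 692.845 kb of the Pax windows, and the shares for H3K27ac and H3K4me1 were not tested against that cover. Bases called for both H3K4me3 and H3K27me3 in at least 2 of 3 libraries of a genotype summed to 12482 bp in IκBα-WT and 9606 bp in IκBα-KO. Because each mark came from its own library of many cells, the same cells or alleles need not carry both, and fewer cells with a mark cannot be told apart from less of it per cell.

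H3K4me3 covered less of the Pax windows in IκBα-KO cells. Its summed cover was 13.5, 11.3 and 16.7 kb in IκBα-WT libraries 1 to 3 and 9.29, 11.1 and 10.9 kb in IκBα-KO libraries 1 to 3. The groups did not overlap, although the margin between the lowest IκBα-WT and the highest IκBα-KO library was narrow. Taken singly, covered bases did not overlap and were lower in IκBα-KO for 2 members, Pax5 and Pax8, and higher for 1, Pax4. Across coding windows with a call, 7.25% were lower and 24.5% higher without overlap, so the family's count of lower members was 2 of 9 against a background of 7.25%. With 3 against 3 libraries, the two-sided exact permutation test gives no p below 0.1. Among 39 tested pairs of gene and mark with a call, 12 reached that value, with a Benjamini-Hochberg adjusted p of 0.325 by the exact test.

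At Pax8, a regulator of thyroid and kidney development, H3K4me3 formed 1 call per library just inside the gene, between +460 and +2116 bp. The call spanned 1053, 1006 and 1070 bp in IκBα-WT and 394, 528 and 373 bp in IκBα-KO. All IκBα-KO calls were thus narrower than any IκBα-WT call, with means of 1043 ± 33.2 and 432 ± 84.1 bp (SD, n = 3 each, exact permutation p = 0.1). In the limma fit of log2 covered bases across 13533 coding windows called in all 6 libraries, where 9.43% rose and 1.35% fell, Pax8 fell (log2 change -1.29 ± 0.20 SE, adjusted p = 0.0084). Its height did not separate the groups, since the highest fold enrichment over input was 6.47, 5.54 and 8.58 in IκBα-WT and 6.77, 5.84 and 6.35 in IκBα-KO. A fit of the highest fold enrichment gave a log2 change of -0.10 with an adjusted p of 0.817 by limma.

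At Pax5, which commits progenitors to the B lymphocyte lineage, much of the difference lay upstream of the gene. Calls covered 3488, 3094 and 4132 bp in IκBα-WT and 2246, 2179 and 2008 bp in IκBα-KO, and the groups did not overlap. The fit gave a log2 change of -0.73 ± 0.12 (SE, limma adjusted p = 0.011). There were 6, 5 and 7 calls in IκBα-WT against 4, 3 and 3 in IκBα-KO. Calls that began 5957, 45632 and 151943 bp inside the gene were present in all 6 libraries. The call between -1856 and -1083 bp, which holds the printed upstream stretch, was present in 3 IκBα-WT libraries and 1 IκBα-KO library, and that between -642 and -306 bp in 2 IκBα-WT libraries and no IκBα-KO library. Over the gene body alone the change was smaller (log2 -0.36, limma adjusted p = 0.083), and the highest fold enrichment gave the opposite sign (log2 0.16, limma adjusted p = 0.658).

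Pax7 and Pax9 had lower mean widths whose groups overlapped. At Pax7, a factor of muscle satellite cells, calls covered 1401, 582 and 2336 bp in IκBα-WT and 317, 332 and 713 bp in IκBα-KO, where IκBα-WT library 2 lay below IκBα-KO library 3. The call across the Pax7 start, between -570 and +357 bp, was present in 3 IκBα-WT libraries and in no IκBα-KO library, a pattern held by 0.283% of all coding promoters. It did not remain when at least 200 bp of overlap with the promoter was required (1 IκBα-WT and no IκBα-KO library) or when the promoter was taken as 1000 bp on either side of the start (3 IκBα-WT libraries and 1 IκBα-KO library). The stretch shared by all 3 IκBα-WT libraries ran from -21 to +238 bp, almost wholly inside the gene. A call that began at +11243 bp showed the other pattern, in 1 IκBα-WT and 3 IκBα-KO libraries. The fitted change over the whole window was -1.56 ± 0.51 (log2, SE, limma adjusted p = 0.0887), and it passed the test when IκBα-WT library 2 was left out (adjusted p = 0.036) but not when any other library was (adjusted p from 0.0923 to 0.224). It also passed when each library was centred on its own median (adjusted p = 0.0449).

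At Pax9, which is needed for teeth and pharyngeal pouch derivatives, calls covered 585, 1539 and 1799 bp in IκBα-WT and 354, 464 and 739 bp in IκBα-KO. IκBα-WT library 1 lay inside the IκBα-KO range. The longest call spanned 585, 1087 and 1105 bp against 354, 234 and 514 bp, with no overlap. The share of coding windows that separate by their longest call was not computed. The fit gave -1.25 ± 0.44 (log2, SE, limma adjusted p = 0.108), and -1.75 with an adjusted p of 0.0358 without IκBα-WT library 1. It did not pass when any other library was left out (limma adjusted p from 0.121 to 0.273).

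Pax4, a regulator of insulin-producing cells, was the only member with H3K4me3 in IκBα-KO alone. No IκBα-WT library had a call, while IκBα-KO libraries had calls of 316, 230 and 355 bp between -2266 and -1607 bp. The calls were low, with fold enrichments of 5.46, 4.48 and 4.02, and only 11 bp were common to all 3. Bases called in 3 IκBα-KO and in no IκBα-WT library were found in 2 Pax windows, Pax4 and Pax2, beside 43.4% of coding windows, and the reverse in 4 (Pax5, Pax6, Pax7 and Pax9) beside 23.5%. Such a promoter pattern, called in 3 of 3 IκBα-KO and 0 of 3 IκBα-WT libraries, was found at 0.442% of coding promoters. It was lost when the same number of top-ranked calls was taken from each library, which left the groups overlapping. Over windows called in any library, with 200 bp added before the log, Pax4 rose by 1.31 ± 0.31 (log2, SE, limma adjusted p = 0.0366), a value that depends on the bases added.

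**Figure D2:**
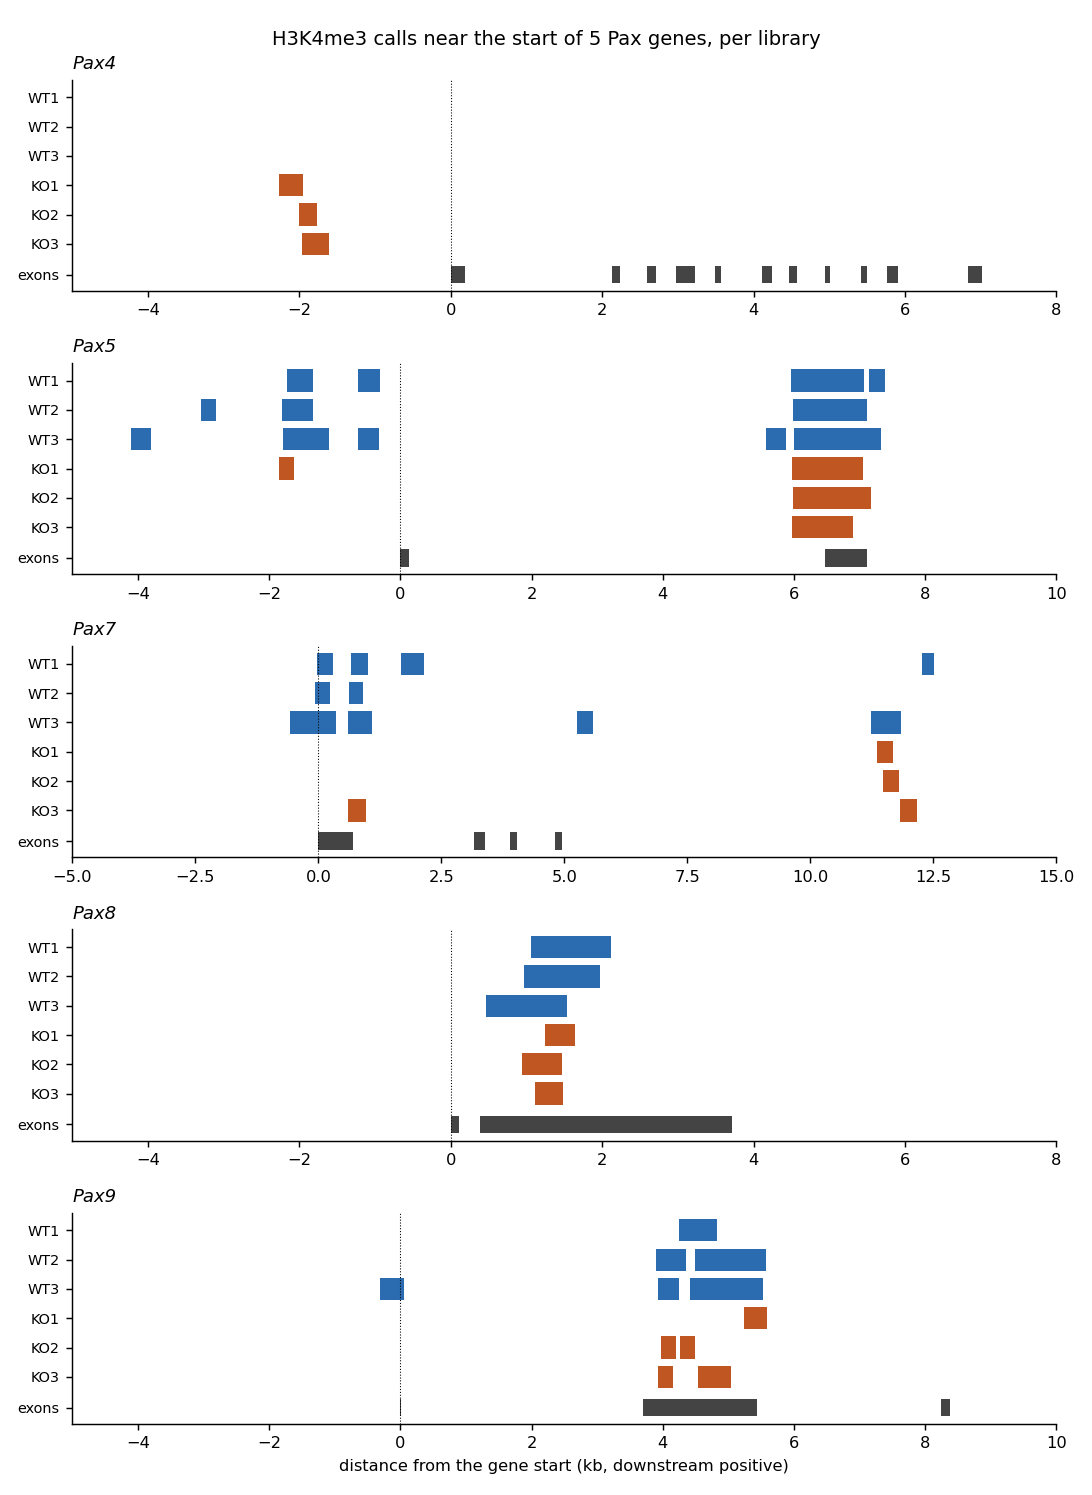
H3K4me3 calls near the starts of Pax4, Pax5, Pax7, Pax8 and Pax9, with distance from the gene start in kb on the horizontal axis, 1 row of bars per library and annotated exons in a row of their own. The Pax8 bars are shorter in all 3 IκBα-KO libraries, the bar across the Pax7 start is present in 3 IκBα-WT libraries only, and the bar upstream of Pax4 in 3 IκBα-KO libraries only.

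Pax2 and Pax6 did not pass the H3K4me3 test, and Pax1 and Pax3, each without a call in 1 library, were not tested. Pax1 had 1189 and 1017 bp in IκBα-WT libraries 1 and 3, no call in IκBα-WT library 2, and 1004, 994 and 1020 bp in IκBα-KO. Pax2, which patterns kidney and midbrain, had a call at its 3′ end in all 6 libraries with fold enrichments of 8.81 to 12.5, and a call at its start that covered 1241, 954 and 540 bp in IκBα-WT and 1400, 1734 and 1671 bp in IκBα-KO. The start call was wider in every IκBα-KO library, while the fit over the Pax2 window gave 0.31 ± 0.14 (log2, SE, limma adjusted p = 0.179). Pax6 kept calls that began 5587 and 7026 bp inside the gene in all 6 libraries, with a fitted change of -0.20 ± 0.14 (limma adjusted p = 0.379). Its highest fold enrichment was 9.22, 7.65 and 10.4 in IκBα-WT and 6.49, 7.46 and 7.11 in IκBα-KO, without overlap. The share of coding windows that separate by this measure, or by the width of 1 call as at the Pax2 start, was not computed. Pax3 had no call in IκBα-KO library 1 and 295 to 1094 bp in the other libraries. No Pax promoter was called in all 6 libraries, compared with 47.6% of coding promoters. Over the 6 members fitted, the median log2 change was -0.99, beside 0.13 over all windows tested.

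H3K27me3 cover was kept at all 9 genes. Its sum was 464, 505 and 506 kb in IκBα-WT and 524, 523 and 492 kb in IκBα-KO, with overlap. Only Pax7 was covered more in every IκBα-KO library (95.1, 88.7 and 90.0%) than in any IκBα-WT library (74.9, 87.1 and 83.3%), and 10.9% of coding windows were higher without overlap in this way. None was lower, beside 7.61% of coding windows. Bases called in 3 IκBα-KO and in no IκBα-WT library summed to 4539 bp there, of which 1800 bp lay at the 3′ end of the gene. Such bases were also found at Pax3, Pax5 and Pax9, 4 of 9 members beside 19% of coding windows. IκBα-WT library 1 had the fewest reads of the mark and the lowest cover of Pax7.

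Read counts were compared with edgeR for windows whose covered length was alike in all 6 libraries (shortest at least 0.8 of the longest), so that 1705 windows and 5 members were tested. Of these windows 7.21% rose and 8.33% fell. Pax9 fell (log2 change -0.20 ± 0.05 SE, adjusted p = 0.0348) and so did Pax2 (-0.13 ± 0.03, adjusted p = 0.0291). The density of H3K27me3 reads within the Pax9 calls was 93.8, 84.0 and 96.7 per kb in IκBα-WT and 77.3, 78.2 and 79.8 per kb in IκBα-KO, with no overlap. The share of coding windows that separate by this density was not computed. Input reads around Pax9 were also lower in IκBα-KO in this experiment (log2 ratio relative to the genome -0.097), and their part in the result was not tested. Pax3 (-0.11, adjusted p = 0.199), Pax5 (0.09, adjusted p = 0.129) and Pax6 (0.02, adjusted p = 0.868) did not pass the edgeR test. Without TMM scaling 27 windows rose and 347 fell, against 123 and 142 with it, the median of all windows moved to -0.11, and Pax3 passed the test at -0.21 (adjusted p = 0.0117).

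Both H3K27me3 calls were fragile. Each was kept when IκBα-WT library 1 was left out and lost when any other library was, with edgeR adjusted p from 0.0622 to 0.102 for Pax9 and from 0.0527 to 0.0954 for Pax2. With read counts scaled to the covered length, neither passed the edgeR test (Pax9 -0.22, adjusted p = 0.132, and Pax2 -0.12, adjusted p = 0.31). Pax8, which had the least H3K27me3 of the family, was not alike in length at 0.8. At a ratio of 0.5 it fell by 0.35 on the log2 scale (edgeR adjusted p = 0.0178), with 21.8, 22.8 and 23.0 reads per kb of window in IκBα-WT and 17.0, 20.9 and 17.4 in IκBα-KO. With reads scaled to the covered length it did not pass (-0.13, edgeR adjusted p = 0.387). Before any scaling for depth, H3K27me3 reads per kb of window were lower in every IκBα-KO library at Pax8 alone, beside 11.4% of coding windows, and none was higher, beside 17.2%.

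Within the family, H3K9me3 was called in all 6 libraries only upstream of Pax4, and no call reached the gene itself. A call that extended upstream from 1.85 to 2.05 kb before the gene in IκBα-WT ended nearest the gene at 2.45, 1.45 and 2.45 kb in IκBα-KO libraries 1 to 3. Within the window it covered 2953, 3153 and 3153 bp in IκBα-WT and 2553, 3553 and 2553 bp in IκBα-KO, with overlap. Reads per kb of window were 12.2, 11.6 and 11.7 in IκBα-WT and 10.0, 9.50 and 8.25 in IκBα-KO, lower in every IκBα-KO library, as in 12.2% of coding windows with a call, while 5.66% were higher. The whole calls, which ran on beyond the window, were 12.6, 12.2 and 12.2 kb long in IκBα-WT and 3, 4 and 12.2 kb in IκBα-KO. Reads were shared out evenly along each call, so for the longer calls these values rest largely on reads from outside the window. The libraries were therefore not measured alike. The Pax4 promoter was the only one of the family called in all 6 libraries, beside 6.85% of coding promoters. IκBα-KO library 2 had the fewest reads of the mark, 8548342. Pax4 was not alike in length at 0.8, and at 0.5 its log2 change was -0.26 ± 0.15 (SE, edgeR adjusted p = 0.292). Of the 418 windows tested at 0.8, none of which was a Pax window, 5.98% rose and 6.7% fell.

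H3K9me3 and H3K4me3 met at the Pax4 upstream stretch. In IκBα-KO libraries 1 and 3 the H3K9me3 call stopped short of the H3K4me3 call, while in library 2 the H3K9me3 call reached past it. H3K27me3 covered the stretch in both genotypes. Pax5 had short H3K9me3 calls inside the gene in 5 of 6 libraries. Pax3 had a call inside the gene in 1 IκBα-WT library and 1 IκBα-KO library, and one past its 3′ end in 3 IκBα-WT libraries and 1 IκBα-KO library. Pax2 had a call in IκBα-KO library 1 alone. No member's covered bases separated the genotypes, compared with 4.76% of coding windows higher and 11.4% lower.

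H3K27ac differed in opposite directions at different members. Covered bases were higher in every IκBα-KO library at Pax5, Pax6 and Pax8, and lower at Pax9. Such windows made up 21.6% (higher) and 8.2% (lower) of coding windows with a call, and the family's counts were 3 and 1 of 9. Summed over the family, H3K27ac covered 232, 236 and 244 kb in IκBα-WT and 243, 258 and 270 kb in IκBα-KO, with overlap. In IκBα-KO libraries 1 and 2 more reads lay in calls genome-wide (27940902 and 28339766) than in any other, and the part of depth in these widths was not tested.

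By covered bases, Pax8 showed the widest relative difference of H3K27ac in the family. By reads per kb of window the relative difference was wider at Pax9, described below. Calls covered 16.9, 11.7 and 18.8% of its window in IκBα-WT and 28.9, 25.8 and 33.8% in IκBα-KO. There were 2, 1 and 2 calls against 4 in each IκBα-KO library, and reads per kb of window were 8.95, 7.32 and 10.3 against 16.2, 14.1 and 15.8. Neither measure overlapped. Reads per kb of window were higher in every IκBα-KO library at 3 members (Pax5, Pax7 and Pax8), beside 24.1% of coding windows, and lower at 2 (Pax2 and Pax9), beside 10.8%. A call that began at 28399 bp was common to all 6 libraries, a call across the start was present in 2 IκBα-WT and 3 IκBα-KO libraries, and the other calls were in IκBα-KO libraries only, at positions shared by at most 2 of them. Because of the differing lengths Pax8 was not tested by read counts, and its density within calls overlapped (52.9, 62.6 and 54.7 against 56.1, 54.5 and 46.7 reads per kb).

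Pax9 showed the reverse. H3K27ac covered 9600, 8000 and 7000 bp around its start in IκBα-WT and 4200, 4200 and 6400 bp in IκBα-KO. Reads per kb of window were 13.1, 12.4 and 11.1 against 4.73, 6.28 and 8.18, and every IκBα-KO library was below every IκBα-WT library. The input reads within these calls were also lower in IκBα-KO, at 31.3, 31.1 and 31.1 per kb in IκBα-WT and 25.7, 25.5 and 29.1 per kb in IκBα-KO, and their part in the result was not tested.

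At Pax3, a factor of neural crest and muscle precursors, the start region was called for H3K27ac in 3 IκBα-WT libraries and in no IκBα-KO library. The stretch shared by the IκBα-WT libraries ran from -66 to +1933 bp (chr1:78195201-78197200, across coding exon, UTR and intron). Promoters with this pattern were 0.948% of all coding promoters. Elsewhere in Pax3, a call that began at 25934 bp was present in 2 IκBα-KO libraries only, and the whole window overlapped between genotypes (5.10, 10.2 and 10.2% against 3.97, 3.97 and 7.93%). Within the promoter window the shared stretch is short, and no Pax promoter kept this pattern when at least 200 bp of overlap was required. With 1000 bp on either side of the start, Pax3 kept it (3 IκBα-WT libraries and no IκBα-KO library).

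**Figure D3:**
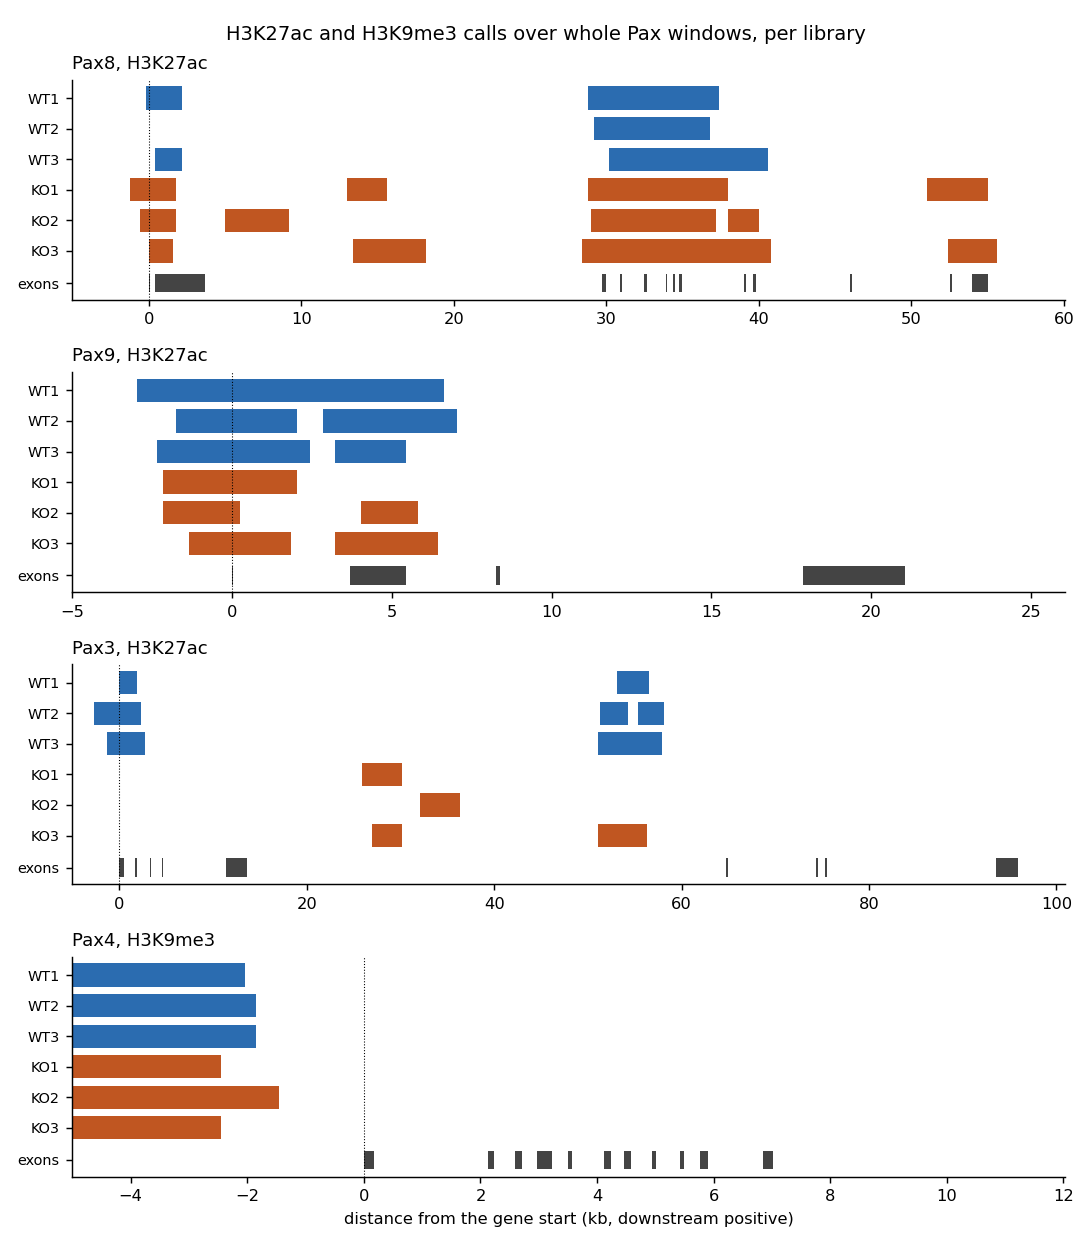
H3K27ac calls over the windows of Pax8, Pax9 and Pax3 and H3K9me3 calls over the window of Pax4, with distance from the gene start in kb on the horizontal axis and 1 row of bars per library. Pax8 has 4 calls in each IκBα-KO library against 1 or 2 in IκBα-WT, and the call at the Pax3 start is present in the 3 IκBα-WT libraries only.

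At Pax5 a region near the 3′ end was covered by H3K27ac calls over 23800, 23600 and 23600 bp in IκBα-WT and 25400, 27000 and 24600 bp in IκBα-KO. It formed 1 call in each IκBα-KO library and several in each IκBα-WT library, so most of its bases were called in both genotypes. Of the 4172 windows tested by edgeR 13.2% rose and 9.59% fell. Pax5 rose by 0.15 ± 0.04 (log2, SE, adjusted p = 0.0269) and Pax2 fell (-0.25 ± 0.06, adjusted p = 0.0254), while Pax6 gave -0.01 (adjusted p = 0.909). Pax2 reads per kb of window were 25.1, 25.9 and 26.7 in IκBα-WT and 23.8, 23.1 and 23.5 in IκBα-KO, with no overlap.

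Most sets of 5 libraries lost these edgeR calls. Pax5 passed only without IκBα-WT library 2, with adjusted p from 0.0518 to 0.0767 when any other library was left out. Pax2 passed only without IκBα-KO library 3, with adjusted p from 0.0576 to 0.0806 when any other was. With counts scaled to the covered length neither passed (Pax5 0.02, edgeR adjusted p = 0.742, and Pax2 -0.06, edgeR adjusted p = 0.328). Without TMM scaling 374 windows rose and 758 fell, against 551 and 400 with it, and Pax5 did not pass (log2 change 0.10, edgeR adjusted p = 0.118). Promoters of Pax2, Pax5, Pax6, Pax7 and Pax9 were called for H3K27ac in all 6 libraries, 5 of 9 beside 54.2% of coding promoters. For H3K27me3, H3K9me3 and H3K4me1, no Pax promoter was restricted to 1 genotype, beside 0.602, 0.529 and 0.374% of coding promoters called only in the 3 IκBα-WT libraries and 0.479, 0.0912 and 0.155% only in the 3 IκBα-KO libraries.

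H3K4me1 was lower across much of the family in IκBα-KO. Its summed cover was 355, 350 and 353 kb in IκBα-WT and 331, 328 and 336 kb in IκBα-KO, without overlap. Genome-wide, each IκBα-KO library also had fewer reads in calls (34736939 to 35603596) than any IκBα-WT library (35766277 to 35951506). H3K4me1 calls covered 476 to 483 Mb of the genome in IκBα-KO against 486 to 488 Mb in IκBα-WT. The part of depth in the covered bases and unscaled reads was not tested. Covered bases were lower in every IκBα-KO library at Pax1, Pax2, Pax3 and Pax9, 4 of 9 members, beside 15.4% of coding windows (11.7% were higher). Reads per kb of window were lower in every IκBα-KO library at these 4 genes and at Pax6 and Pax7, 6 of 9 members, beside 30.3% of coding windows (17.5% were higher). All 9 promoters were called in all 6 libraries, as were 65.7% of coding promoters.

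The values showed this gene by gene. Pax1 had 37.6, 39.2 and 35.6 reads per kb of window in IκBα-WT and 29.7, 29.4 and 28.9 in IκBα-KO. Pax9, its relative, had 46.2, 50.7 and 45.9 against 39.8, 38.5 and 37.1. At both genes every IκBα-KO library lay below every IκBα-WT library, by margins wider than the spread within either group. Pax2 had 55.5, 56.4 and 54.9 against 48.7, 47.7 and 45.9, and Pax3 29.8, 29.2 and 31.8 against 23.8, 20.6 and 22.2. Pax6 had the highest density of the family, 101.3, 100.5 and 98.9 against 89.3, 90.9 and 90.1, and Pax7 had 72.6, 71.8 and 69.8 against 66.3, 64.4 and 65.5. At Pax4, Pax5 and Pax8 the groups overlapped.

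**Figure D4:**
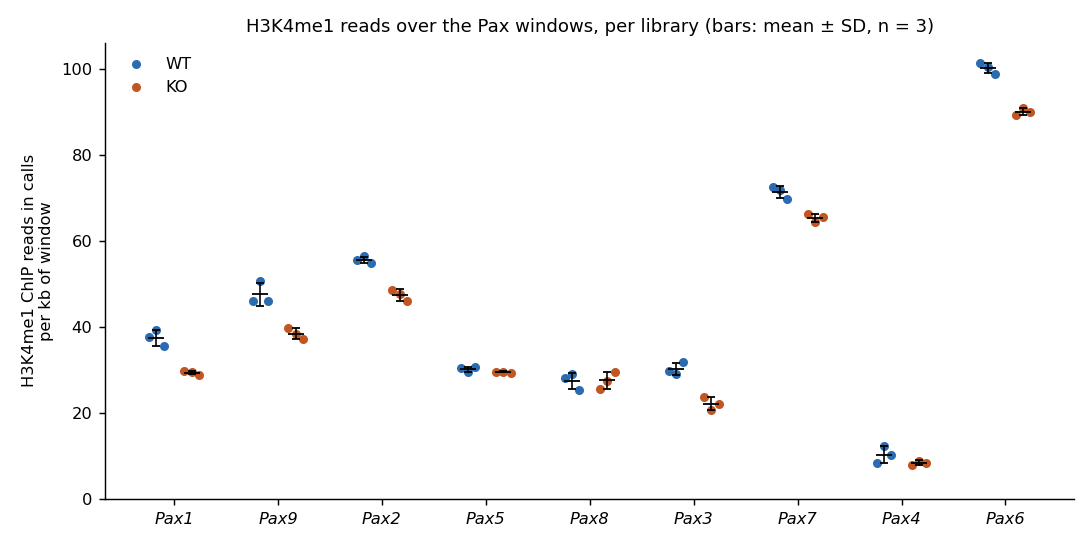
H3K4me1 ChIP reads in calls per kb of window (vertical axis) for the 9 Pax genes (horizontal axis, by subgroup); points are libraries, with the mean and SD of 3 IκBα-WT and 3 IκBα-KO libraries. All 3 IκBα-KO points lie below all 3 IκBα-WT points at Pax1, Pax2, Pax3, Pax6, Pax7 and Pax9.

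Of 7468 windows tested by edgeR 16.8% rose and 11.9% fell, and of the 5 members tested 4 fell. Pax9 fell by 0.27 ± 0.05 (log2, SE, adjusted p = 0.0029), Pax2 by 0.19 ± 0.03 (adjusted p = 0.00035), Pax6 by 0.12 ± 0.03 (adjusted p = 0.0125) and Pax7 by 0.09 ± 0.02 (adjusted p = 0.0151). Pax5 gave 0.01 (adjusted p = 0.877). The median over the 5 was -0.12, beside -0.0047 over all windows tested. At a length ratio of 0.5 Pax3 (-0.40, adjusted p = 0.00097) and Pax1 (-0.30, adjusted p = 0.0028) also fell by edgeR. Pax6 did not pass without IκBα-KO library 1 (adjusted p = 0.0526), nor Pax7 without IκBα-WT library 1, IκBα-WT library 2 or IκBα-KO library 2 (adjusted p = 0.0584, 0.0509 and 0.0679). With counts scaled to the covered length, Pax6 and Pax7 still fell while Pax9 (adjusted p = 0.369), Pax2 (adjusted p = 0.676), Pax3 (-0.10, adjusted p = 0.196) and Pax1 (-0.11, adjusted p = 0.247) did not pass the edgeR test.

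**Figure D5:**
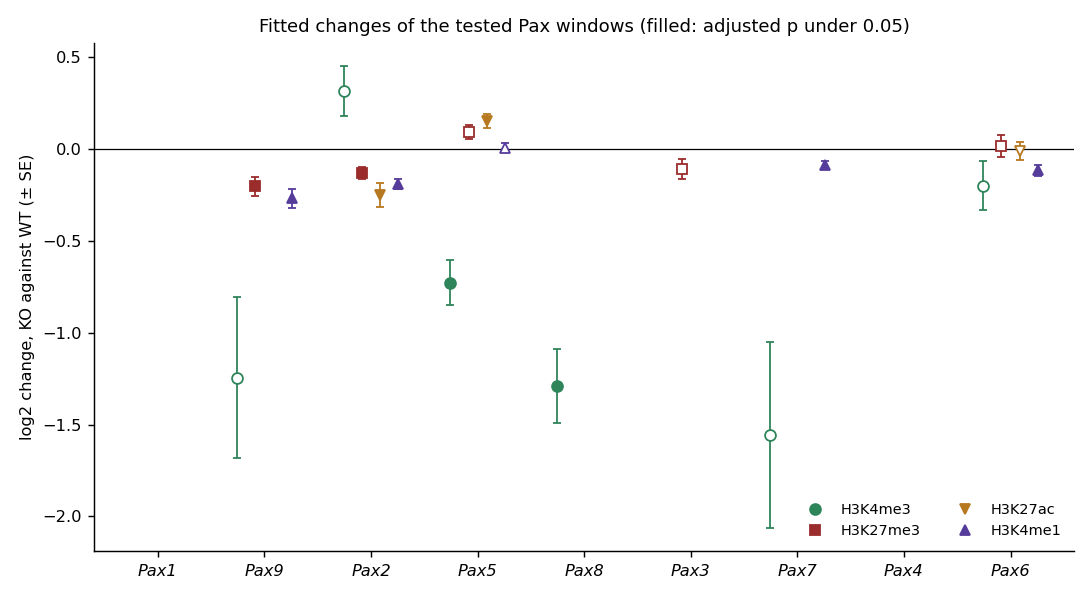
Fitted log2 change, IκBα-KO against IκBα-WT, with its standard error (vertical axis) for each Pax gene (horizontal axis) that could be tested in each mark. H3K4me3 was fitted on covered bases and the others on reads in calls. Filled points passed an adjusted p of 0.05: Pax5 and Pax8 (H3K4me3), Pax2 and Pax9 (H3K27me3), Pax2 and Pax5 (H3K27ac), and Pax2, Pax6, Pax7 and Pax9 (H3K4me1), of which only Pax5 in H3K27ac rose.

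The longest H3K4me1 stretch called in 3 IκBα-WT and no IκBα-KO library spanned 3200 bp of a Pax2 intron (chr19:44792201-44795400, 36156 to 39355 bp inside the gene). A further 800 bp directly beyond it showed the same pattern for H3K27ac. Windows that held any such bases were common, 29.5% for H3K4me1 and 15.9% for H3K27ac. The H3K27ac bases of the Pax windows lay under H3K4me1 calls of the same genotype and number to 91.7, 90.8 and 91.6% in IκBα-WT and 82.5, 81.8 and 84.2% in IκBα-KO, and the groups did not overlap. The share over the whole genome was not computed. Genome-wide, H3K27ac calls covered 380 to 393 Mb in IκBα-WT and 411 to 419 Mb in IκBα-KO. H3K4me1 calls covered 486 to 488 Mb and 476 to 483 Mb. Input reads per kb within H3K4me1 calls were lower in every IκBα-KO library at Pax1 (29.2 to 29.4 against 25.4 to 25.6), and their part in the lower ChIP reads was not tested. Within the Pax6 calls the input was alike, at 32.1 to 32.2 and 32.1 to 32.3 per kb.

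Genes regulated by Pax factors in their lineages were counted from a list of 16, of which 9 could be tested for H3K4me3, and only Gdnf, a kidney growth factor gene, fell (-1.21, limma adjusted p = 0.0248), beside 1.35% of all windows tested. Of 4 tested for H3K27me3 only Nkx3-2, which is expressed in forming vertebrae, fell (-0.24, edgeR adjusted p = 0.0282), beside 8.33% of all windows. Slc5a5, the thyroid iodide transporter gene regulated by Pax8, rose in H3K27ac (0.29, edgeR adjusted p = 0.0028), 1 of 2 tested, beside 13.2% of all windows. It rose in H3K4me1 too (0.52, edgeR adjusted p = 3.1e-06), where 8 were tested and 3 fell, with Gata3, a transcription factor gene of the early kidney, the furthest (-0.26, edgeR adjusted p = 8.2e-05), beside 16.8% of all windows that rose and 11.9% that fell. None of the list had a window that could be tested for H3K9me3. The median log2 change of the list was 0.21 for H3K4me3, beside 0.13 over all windows tested, and -0.08 for H3K4me1, beside -0.0047.

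Likeness of the 5-mark pattern was measured as the mean absolute difference in percent covered over the 30 libraries. Within the family Pax1 and Pax8 were closest, at 5.49 percentage points, followed by Pax5 and Pax9 at 5.82 and Pax6 and Pax7 at 7.83. None of these pairs joins members of 1 subgroup. Pax4 stood furthest from its nearest relative, Pax3, at 11.4 points. Of all coding genes, those nearest were Wnt9a for Pax2 (3.70), Cym for Pax4 (3.37), Rasgef1a for Pax5 (2.84), Spock2 for Pax6 (3.11), P2ry2 for Pax7 (3.47), Prkag2 for Pax8 (3.23) and Mgll for Pax9 (3.61).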

How the data were processed

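Libraries were grouped by the genotype and replicate number in their titles. By the methods of the study, 50-bp single-end reads were trimmed by the authors with Trim Galore and aligned to GRCm38 with Bowtie2 (stated for H3K4me3, H3K27me3 and H3K4me1; the aligner for H3K27ac is not given in the sources used here, and H3K9me3 is not described there). They removed multimapping and low-quality reads and blacklisted regions, marked duplicates and discarded the Drosophila spike-in of H3K27me3. The submitters' processing notes list Trim Galore 0.6.6, Bowtie2 2.4.4, SAMtools 1.15, MACS2 2.2.7.1 and SICER 0.0.52, while the methods name epic2. For H3K4me1 and H3K27ac the labels give 1 antibody, whereas the methods give H3K27ac a different one.

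For H3K4me3 the authors deposited MACS2 peaks with a fold enrichment over input (a ratio), −log10 p-values and q-values and a score, but no read counts. For the other marks the authors deposited epic2 regions, called per library in steps of 200 bp, with ChIP and input read counts, a p-value, an FDR under 0.05, a log2 fold change over input and a score. The input entered only through these counts, and none of the 8 input samples had a file of its own here. The deposited p-values, −log10 values, log2 fold changes and scores compare ChIP with input within a library and were used only to filter or rank calls.

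ChIP reads of a call were shared out to each coding window by the overlapping length, summed and rounded. Windows called in all 6 libraries, with the shortest covered length at least 0.8 of the longest, were tested with edgeR 4.0.16 (quasi-likelihood, TMM). Covered H3K4me3 bases were tested as log2(bp) with limma 3.58.1 (trend) in windows called in all 6 libraries. Genotype was the only term, and p-values were adjusted over all windows tested by Benjamini-Hochberg, at 0.05. Single windows were compared by a two-sided exact permutation test. DESeq2 1.42.0 was an alternative. Both fits were tested on simulated data with known changes. Descriptions used Python 3.11.15, and sequences were read from the GRCm38.p6 RefSeq genome with samtools 1.23.1. Reads in calls set the depth, and H3K4me3 depth is not given by its lists. All 9 members were named. From the list of 16 related genes, at most 2 genes with the largest changes past the test were named per mark, and for likeness the nearest gene to each member, of which 2 are not reported here. A further gene list is not reported here either. The family and the lists were chosen with earlier results of these data known, while the 9 members within the family were taken by symbol.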

Additional observations from a re-analysis of the deposited data

How the results depend on the processing

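Of 251 refitted changes of single members, 206 kept their side of the threshold. These 206 include changes that passed in neither fit, also where the sign turned. In 37 a change that passed in the main fit did not pass when refitted, and in 7 the reverse was seen. In 1 the sign turned where a fit had passed. The share kept is thus not that of the changes that passed. Of 351 recomputed differences in covered bases, 344 moved by less than 1 SD. Where a value moved, the cause was not tested. With H3K4me3 scored by highest fold enrichment, 2292 windows and no Pax window passed, and the sign at Pax5 turned to 0.16. Over gene bodies alone 736 windows and 1 Pax window passed for H3K4me3, 159 and 1 for H3K27me3 and 1 Pax window for H3K27ac. No H3K27ac window then separated downward (0 members), 2 separated upward in H3K27me3, and the Pax4 H3K4me3 call lay outside (0 bp). Centring H3K4me3 gave 926 windows higher and 440 lower, against 1276 and 183. Without TMM, H3K9me3 gave 114 windows (98 higher, 16 lower, against 25 and 28), and 1 Pax window passed for H3K27ac. DESeq2 kept 1 Pax window for H3K27me3.

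A length ratio of 0.5 gave 877 windows for H3K27me3, 364 for H3K9me3, 2454 for H3K27ac (1 Pax window) and 4394 for H3K4me1, with more windows tested. A length offset gave 130 windows and 0 Pax windows for H3K27me3, 1453 and 0 for H3K27ac, and 2 Pax windows for H3K4me1. At an FDR of 0.01, 1 Pax window passed for H3K27ac and 2 members separated upward in H3K27me3. With the same number of top-ranked calls, 0 members were higher and 5 lower in H3K4me3, 2 higher and 1 lower in H3K27me3, and 1 higher in H3K4me1, and the summed difference was 1.56 kb for H3K9me3 and 39.3 kb for H3K27ac. Requiring 200 bp of promoter overlap left 0 promoters restricted to IκBα-WT for H3K4me3 and 0 for H3K27ac. With 1000 bp on either side of the start, 1 promoter was called in all 6 H3K4me3 libraries and 0 were restricted to either genotype for H3K4me3. For H3K9me3, 0 were called in all 6 libraries, and for H3K27ac 1 (Pax3) stayed restricted to IκBα-WT. A consensus of 3 of 3 libraries left 7012 bp (IκBα-WT) and 5575 bp (IκBα-KO) under both H3K4me3 and H3K27me3.

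Leaving out 1 library at a time gave 532 to 1614 windows for H3K4me3 and 147 to 246 for H3K27me3. Pax windows past the test numbered 0 to 3 for H3K27me3, 0 to 1 for H3K9me3 and 0 to 1 for H3K27ac. Members that separated numbered 1 to 2 higher and 2 to 4 lower for H3K4me3, 1 to 2 higher and 0 to 2 lower for H3K27me3, 0 to 1 lower for H3K9me3, 1 to 3 lower for H3K27ac and 0 to 1 higher for H3K4me1.

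Replicate numbers were not used to pair the samples. The deviations of same-numbered libraries correlated at -0.11 to 0.09 over the marks. For H3K27me3 they were all positive (0.076, 0.089 and 0.042), while those of unlike number were negative (-0.069 to -0.0053). With the replicate block, 4 Pax windows passed for H3K4me3 (1270 windows in all) and 1 for H3K27me3 (206 windows), while 2 for H3K27ac and 4 for H3K4me1 were as without it. Those added for H3K4me3 were Pax7 and Pax9 (limma adjusted p = 0.021 and 0.025). Pax2 was lost for H3K27me3 (edgeR adjusted p = 0.0507).

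Calls were made separately in each library, so covered bases move with a library's depth as well as with the mark, and read counts outside calls were not used here. The H3K4me3 lists have no counts. With 3 clones per genotype the exact test cannot pass 0.05, and whether the clones differ in other ways cannot be told apart from genotype.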
